A study of Mus musculus with 12 samples.

Results

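The genes described here are the matrix metalloproteinases (MMPs), the tissue inhibitors of metalloproteinases (TIMPs) and the ADAMTS proteases. They were taken by symbol, as every gene named Mmp, Timp or Adamts followed by a number that had a probe set of its own, and 39 of the 26989 genes tested met this: 21 MMPs, 4 TIMPs and 14 ADAMTS enzymes. Each was read on 1 probe set. Another 7 genes of these families (Adamts1, Adamts2, Adamts5, Adamts10, Adamts19, Mmp15 and Mmp25) are not analysed here.

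The series asks how hearts lacking ADAM12, an ADAM protease anchored in the cell membrane, differ in gene expression under pressure overload. Pressure overload was produced by transverse aortic constriction (TAC), a band around the aortic arch that makes the left ventricle eject against a higher pressure. The groups were ADAM12 knockout hearts after TAC, ADAM12 knockout hearts after sham operation, wild-type hearts after TAC and wild-type hearts after sham operation, with 3 biological replicates each. All mice were C57BL/6J males of 10 weeks, and every heart was taken 2 weeks after its operation and measured on its own Clariom D mouse array. How the knockout allele was made, and in which cells it acts, is not given in the sources used here.

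All values below are the deposited log2 signals, in which a difference of 1 is a 2-fold difference, and a level read on one probe set cannot be set against that of another. Median signals of the arrays lay between 5.06 and 5.19. Background control probe sets had medians of 2.96 to 3.17, and a gene is called dim here when its mean over all arrays did not pass 5.70, the 95th percentile of those probe sets. The only probe set of Adam12, which also carries the symbol 5830403F22Rik, was dim and read 4.25, 4.40 and 4.36 in knockout TAC hearts, 4.33, 4.40 and 4.32 in knockout sham hearts, 4.56, 4.73 and 4.80 in wild-type TAC hearts and 4.54, 4.46 and 4.61 in wild-type sham hearts. Every knockout heart read lower than every wild-type heart. The 7 cardiomyocyte markers measured (Myh6, Tnnt2, Tnni3, Ryr2, Pln, Myl2 and Myl3) were all above the background threshold. Markers of atrial muscle varied within groups, with a summed level of 17.87 to 19.73 among knockout sham hearts and 17.48 to 19.35 among wild-type sham hearts.

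MMPs are zinc-dependent endopeptidases that are made as inactive precursors and, once activated, cut collagens, fibronectin, laminins and other proteins of the extracellular matrix. TIMPs bind the active site of these enzymes and block it, and some of them also help to activate particular precursors. ADAMTS enzymes are secreted relatives that bind the matrix through thrombospondin repeats and cut proteoglycans, procollagens or von Willebrand factor. In the heart these families take part in the turnover of the matrix between muscle cells, which is remodelled when the ventricle works against a raised load.

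Promoter sequences are shown for Timp1 and Mmp3, the members with the smallest p for TAC in the knockout. They are the RefSeq windows of build GRCm38.p6, from 250 bases before to 50 after the annotated start, written 5′ to 3′ on the strand of the gene. Capitals mark TGANTCA, the core site of the AP-1 transcription factors, TATAAA, and in Timp1 the run TGAGTAA, a variant known as the AP-1 site of that promoter.
Timp1 (chrX:20869916-20870215, plus strand): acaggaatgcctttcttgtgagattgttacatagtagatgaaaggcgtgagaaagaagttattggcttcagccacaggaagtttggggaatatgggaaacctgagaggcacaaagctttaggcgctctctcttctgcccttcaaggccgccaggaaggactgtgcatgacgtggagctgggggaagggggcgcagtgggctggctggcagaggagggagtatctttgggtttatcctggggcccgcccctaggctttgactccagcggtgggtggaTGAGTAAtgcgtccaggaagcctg
Mmp3 (chr9:7445572-7445871, plus strand): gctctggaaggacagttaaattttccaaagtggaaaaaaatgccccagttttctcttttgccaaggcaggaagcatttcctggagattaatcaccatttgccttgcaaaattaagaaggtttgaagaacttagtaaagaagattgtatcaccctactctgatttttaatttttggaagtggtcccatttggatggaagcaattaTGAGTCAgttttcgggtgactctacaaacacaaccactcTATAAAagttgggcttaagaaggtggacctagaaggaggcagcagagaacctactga

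In Mmp3 the TGANTCA run began 46 bases before the start and TATAAA 7 bases before it. In Timp1 TGAGTAA lay 26 bases after the annotated start, and neither of the other runs was found on either strand. Windows were at hand for 28 of the 39 genes. On either strand TGANTCA stood in 8 of these 28 and in 7.81% of the 32851 windows of the genome, TATAAA in 10 of 28 and 13.6%, and TGAGTAA in 1 of 28 and 2.68%. TGANTCA reads alike on both strands. Such a match describes the letters of the window and does not show that a factor binds there.

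Of the 8 members with TGANTCA, all are MMPs of a row of 10 genes that follow each other on chromosome 9 in the order Mmp13, Mmp12, Mmp1b, Mmp3, Mmp1a, Mmp10, Mmp8, Mmp27, Mmp20 and Mmp7 (RefSeq, GRCm38.p6). The 72 bases that begin shortly before the run are shown for the other 7 of them, since these neighbours share the run with Mmp3 and their levels are set beside it below.
Mmp13 (chr9:7272471-7272542, plus strand): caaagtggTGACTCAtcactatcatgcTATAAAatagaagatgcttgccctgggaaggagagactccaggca
Mmp12 (chr9:7347322-7347393, plus strand): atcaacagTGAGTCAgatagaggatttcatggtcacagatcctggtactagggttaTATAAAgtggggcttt
Mmp1b (chr9:7388056-7388127, minus strand): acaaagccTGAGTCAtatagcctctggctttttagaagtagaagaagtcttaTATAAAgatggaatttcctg
Mmp1a (chr9:7464060-7464131, plus strand): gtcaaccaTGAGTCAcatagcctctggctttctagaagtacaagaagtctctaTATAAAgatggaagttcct
Mmp10 (chr9:7502271-7502342, plus strand): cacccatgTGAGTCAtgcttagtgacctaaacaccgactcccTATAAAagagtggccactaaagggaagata
Mmp20 (chr9:7628128-7628199, plus strand): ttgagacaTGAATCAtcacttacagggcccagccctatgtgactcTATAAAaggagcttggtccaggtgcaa
Mmp7 (chr9:7692019-7692090, plus strand): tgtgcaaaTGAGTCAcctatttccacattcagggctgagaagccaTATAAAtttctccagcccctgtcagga

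All 7 also hold TATAAA on the strand of the gene, and so do 9 of the 10 genes of the row when both strands are counted.

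Compared with knockout sham hearts, knockout TAC hearts had higher levels of Timp1, Mmp2, Mmp14 and Mmp3 and a lower level of Timp4. In all, 13 of the 39 genes were called in knockout TAC against knockout sham hearts (limma, adjusted p under 0.05), 11 higher and 2 lower, where 12.8% of all genes tested were called, 7.08% higher and 5.68% lower. By family 5 of 21 MMPs rose and none fell, 2 of 4 TIMPs rose and 1 fell, and 4 of 14 ADAMTS enzymes rose and 1 fell. The median difference over the 39 genes was 0.06, against -0.03 over all genes. The groups did not overlap for 20 members, against 32.3% of all genes. In these bulk samples, fewer cells of a type and less RNA per cell cannot be told apart, and the p-values measure the spread between 3 hearts a group.

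Among the inhibitors, Timp1, a secreted TIMP made by many cells of injured tissue, read 7.90, 9.34 and 8.11 in knockout TAC hearts, 5.33, 5.39 and 5.29 in knockout sham hearts, 5.80, 6.92 and 5.92 in wild-type TAC hearts and 5.50, 5.37 and 5.30 in wild-type sham hearts. The knockout TAC hearts were the highest of all 12, the wild-type TAC hearts came next, and the sham hearts of both genotypes lay below the background threshold. Its mean was 8.45 ± 0.78 in knockout TAC hearts and 5.34 ± 0.05 in knockout sham hearts (SD, n = 3 each), so that it was at least 6.73-fold higher after TAC against the threshold as a floor (fitted difference 3.11 ± 0.35, SE, adjusted p = 0.000446).

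Timp2, which also takes part in the activation of the MMP2 precursor, read 12.42, 12.05 and 11.89 in knockout TAC hearts, 11.30, 11.41 and 11.27 in knockout sham hearts, 11.62, 11.90 and 11.34 in wild-type TAC hearts and 11.39, 11.34 and 11.12 in wild-type sham hearts. The surgeries did not overlap in the knockout. In the wild type they did, with 1 TAC heart at 11.34, equal to 1 sham heart and below another at 11.39. It rose by 0.79 ± 0.16 in the knockout (SE, adjusted p = 0.00624).

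Timp3, which binds to the matrix and also inhibits several ADAM and ADAMTS enzymes, read 10.71, 10.18 and 10.09 in knockout TAC hearts, 10.08, 10.08 and 9.90 in knockout sham hearts, 10.05, 10.08 and 10.16 in wild-type TAC hearts and 10.34, 10.16 and 9.73 in wild-type sham hearts. One knockout TAC heart stood above the rest and the other two were close to the sham hearts. The difference of 0.31 ± 0.17 was not called (SE, adjusted p = 0.318).

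Timp4, the TIMP known for its high expression in heart muscle, read 7.84, 6.88 and 7.75 in knockout TAC hearts, 9.76, 9.97 and 9.37 in knockout sham hearts, 7.82, 7.74 and 9.56 in wild-type TAC hearts and 10.36, 9.61 and 9.59 in wild-type sham hearts. All knockout TAC hearts and 2 of 3 wild-type TAC hearts lay well below every sham heart, and the third wild-type TAC heart read close to them. In the knockout it fell by 2.21 ± 0.44 (SE, adjusted p = 0.00688). It was the lowest difference of the 39 genes, and of the TIMPs it was the only one that fell.

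**Figure D1:**
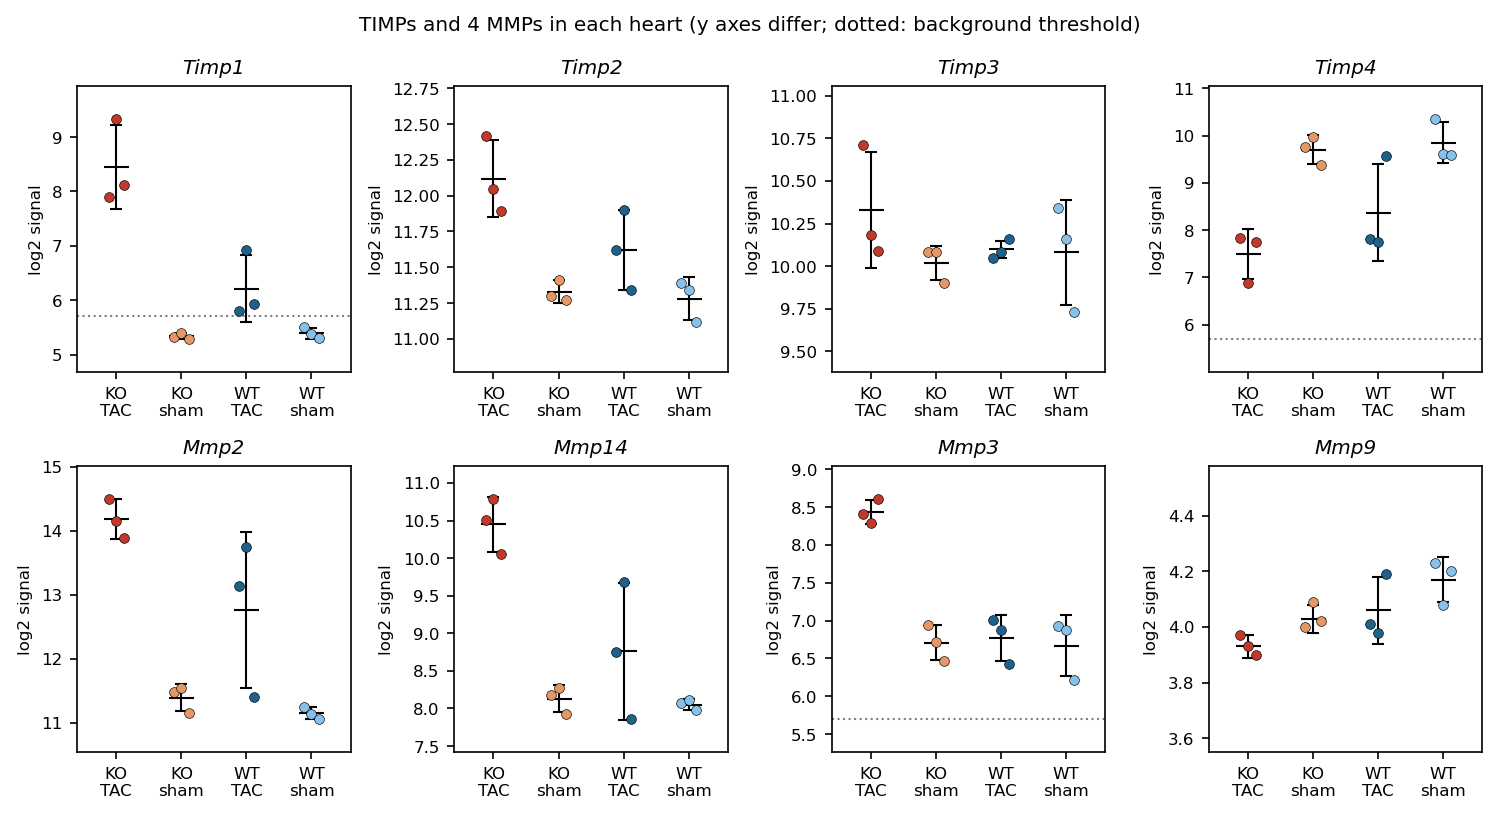
Log2 signal of the 4 TIMPs and of Mmp2, Mmp14, Mmp3 and Mmp9 in each heart, by group, with y axes that differ between genes; points are single arrays, bars the mean and SD of 3 arrays, and the dotted line the background threshold of 5.70. Timp1, Mmp2, Mmp14 and Mmp3 are highest in knockout TAC hearts, Timp4 is lowest there, and the wild-type TAC hearts are spread widely for Mmp2, Mmp14 and Timp4.

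Timp1, Timp3 and Timp4 lie within the synapsin genes Syn1, Syn3 and Syn2, which encode proteins of synaptic vesicles. In knockout TAC against knockout sham hearts Syn1 differed by 0.15 ± 0.09 (adjusted p = 0.356) and Syn2 by 0.15 ± 0.10 (adjusted p = 0.403), and neither was called. Syn3 fell by 0.36 ± 0.09 (adjusted p = 0.0198). The host genes of Timp1 and Timp4 were thus not called where both inhibitors were.

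Among the MMPs, Mmp2, gelatinase A, which cuts denatured collagen and the type IV collagen of basement membranes, read 14.50, 14.15 and 13.89 in knockout TAC hearts, 11.48, 11.55 and 11.16 in knockout sham hearts, 13.14, 13.75 and 11.40 in wild-type TAC hearts and 11.24, 11.14 and 11.06 in wild-type sham hearts. Every knockout TAC heart lay above every other heart. The wild-type TAC hearts divided into 2 high ones and 1 near the sham level. In the knockout it rose by 2.79 ± 0.44, a fold of 6.9 (SE, adjusted p = 0.00188).

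Mmp14, or MT1-MMP, a collagenase of the cell membrane that activates the MMP2 precursor together with TIMP2, read 10.51, 10.79 and 10.05 in knockout TAC hearts, 8.18, 8.27 and 7.93 in knockout sham hearts, 8.75, 9.68 and 7.86 in wild-type TAC hearts and 8.07, 8.11 and 7.98 in wild-type sham hearts. Again all knockout TAC hearts were above all others, and wild-type TAC replicate 3 lay below the sham hearts of its genotype. In the knockout it rose by 2.33 ± 0.35, a fold of 5.01 (SE, adjusted p = 0.00141). All 3 genes of this activation step, Mmp14, Timp2 and Mmp2, were thus called higher in the knockout.

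Mmp3, stromelysin-1, which cuts proteoglycans, fibronectin and laminin and activates other MMP precursors, read 8.41, 8.29 and 8.61 in knockout TAC hearts, 6.94, 6.72 and 6.47 in knockout sham hearts, 7.01, 6.88 and 6.43 in wild-type TAC hearts and 6.93, 6.87 and 6.22 in wild-type sham hearts. The knockout TAC hearts stood apart from the other 9, which formed a single range. In the knockout it rose by 1.72 ± 0.20, a fold of 3.31 (SE, adjusted p = 0.000531).

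Mmp19, an MMP that cuts components of basement membranes, read 6.78, 6.93 and 6.41 in knockout TAC hearts, 6.02, 5.99 and 5.90 in knockout sham hearts, 6.20, 6.05 and 5.96 in wild-type TAC hearts and 5.94, 6.04 and 6.02 in wild-type sham hearts. The knockout TAC hearts were the 3 highest, and the other groups overlapped. It rose by 0.74 ± 0.12 in the knockout (SE, adjusted p = 0.00203). Mmp23, a membrane-bound MMP without the hemopexin domain of most others, rose by 0.65 ± 0.11 there (SE, adjusted p = 0.0026), with means of 6.45 ± 0.09 in knockout TAC hearts and 5.80 ± 0.08 in knockout sham hearts (SD, n = 3 each).

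Mmp9, gelatinase B, known from neutrophils and macrophages, was dim, at 3.97, 3.93 and 3.90 in knockout TAC hearts, 4.0, 4.09 and 4.02 in knockout sham hearts, 4.01, 3.98 and 4.19 in wild-type TAC hearts and 4.23, 4.08 and 4.20 in wild-type sham hearts. No group rose above the background threshold, and the difference of -0.10 ± 0.08 in the knockout was not called (SE, adjusted p = 0.49). The collagenases Mmp8, known from neutrophils, and Mmp13, the main interstitial collagenase of the mouse, were dim as well and differed by -0.02 ± 0.09 (adjusted p = 0.925) and -0.02 ± 0.10 (adjusted p = 0.93). In all 14 of the 21 MMPs were dim: these 3 with Mmp1a, Mmp1b, Mmp7, Mmp10, Mmp12, Mmp16, Mmp17, Mmp20, Mmp21, Mmp24 and Mmp27. Their arrays read 3.46 to 5.65 and their differences in the knockout ran from -0.13 to 0.38, with none called. Mmp11 (stromelysin-3) and Mmp28 (epilysin) were not dim and differed by 0.01 ± 0.12 (adjusted p = 0.975) and 0.01 ± 0.07 (adjusted p = 0.96).

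The row of 10 MMP genes on chromosome 9 includes 8 with a promoter stretch printed above. Mmp3 alone of the 10 was called, where 12.8% of all genes were, and it alone was above the background threshold. The other 9 differed by -0.13 to 0.38 in knockout TAC against knockout sham hearts. The highest of these was Mmp12, macrophage elastase, at 0.38 ± 0.16 (adjusted p = 0.164). Mmp12 read 4.87, 5.65 and 5.01 in knockout TAC hearts and 4.85, 4.78 and 4.76 in knockout sham hearts, so that 1 heart carried most of the difference.

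**Figure D2:**
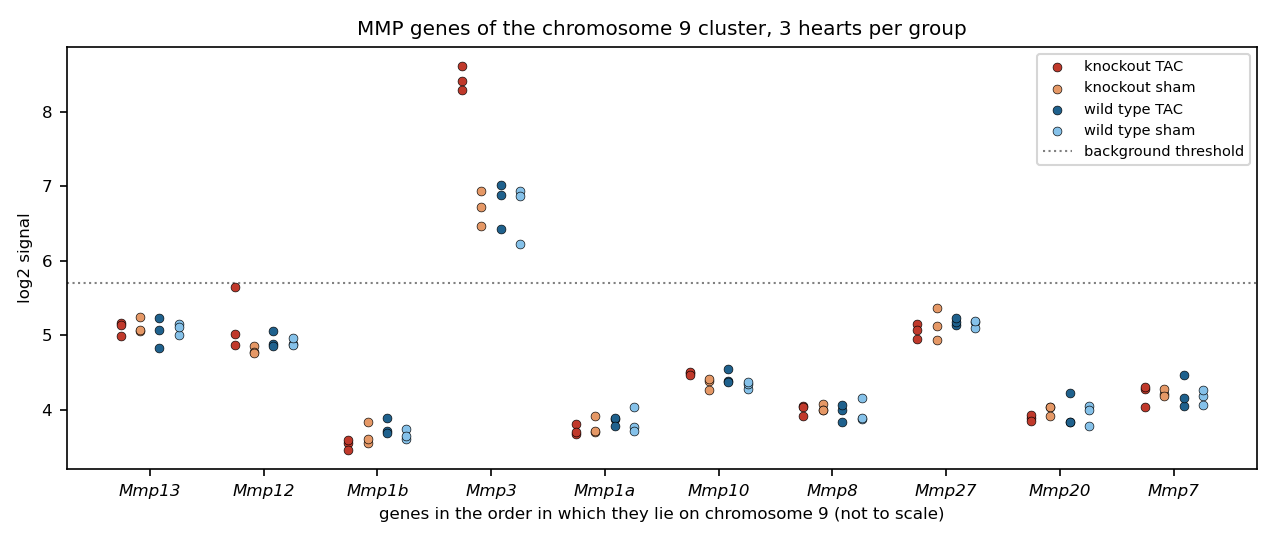
Log2 signal of the 10 MMP genes of the chromosome 9 row in each of the 12 hearts, in the order in which the genes lie (distances not to scale), coloured by group, with the background threshold of 5.70 as a dotted line. Mmp3 lies above the threshold in all hearts and is highest in the 3 knockout TAC hearts at 8.29 to 8.61, while every value of the other 9 genes lies below the threshold.

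Among the ADAMTS enzymes that cut proteoglycans, Adamts8 read 5.80, 7.0 and 5.40 in knockout TAC hearts, 4.60, 5.12 and 4.80 in knockout sham hearts, 4.65, 4.85 and 5.11 in wild-type TAC hearts and 4.54, 4.39 and 4.80 in wild-type sham hearts. The knockout TAC hearts were the 3 highest but were spread widely, and 2 of them were the only hearts above the background threshold. It was at least 1.29-fold higher after TAC in the knockout, with means of 6.07 ± 0.83 in knockout TAC hearts and 4.84 ± 0.26 in knockout sham hearts (SD, n = 3 each, adjusted p = 0.0279). The call was lost without knockout sham replicate 1 (adjusted p = 0.0961), without knockout sham replicate 3 (adjusted p = 0.0849) and in a fit of the knockout arrays alone (adjusted p = 0.0907). Without knockout TAC replicate 2 the difference was 0.76 ± 0.19 (SE, adjusted p = 0.041), and the other knockout TAC hearts averaged 5.60, below the background threshold, so that the bound rests on that heart. Adamts15, its neighbour on chromosome 9 and also a proteoglycan-cutting enzyme, differed by 0.11 ± 0.14 and was not called (adjusted p = 0.692).

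Adamts4, an aggrecanase, read 5.20, 5.59 and 5.24 in knockout TAC hearts, 4.59, 4.66 and 4.53 in knockout sham hearts, 4.69, 4.94 and 4.59 in wild-type TAC hearts and 4.40, 4.54 and 4.60 in wild-type sham hearts. The knockout TAC hearts were the highest, yet all 12 arrays lay below the background threshold, so no fold is given for its rise of 0.75 ± 0.12 on the log2 scale (SE, adjusted p = 0.00181). Adamts9, which cuts versican and aggrecan, rose by 0.68 ± 0.14 in the knockout (SE, adjusted p = 0.00856), with means of 9.58 ± 0.17 in knockout TAC hearts and 8.90 ± 0.18 in knockout sham hearts (SD, n = 3 each).

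Adamts7 and Adamts12 are related enzymes that both cut cartilage oligomeric matrix protein (COMP), and in the knockout they moved in opposite directions. Adamts7 read 6.05, 6.03 and 6.08 in knockout TAC hearts, 6.69, 6.58 and 6.59 in knockout sham hearts, 6.24, 6.08 and 6.42 in wild-type TAC hearts and 6.76, 6.55 and 6.70 in wild-type sham hearts. TAC hearts of both genotypes lay below all sham hearts. In the knockout Adamts7 fell by 0.57 ± 0.09 (SE, adjusted p = 0.00212) and Adamts12 rose by 0.59 ± 0.11 (SE, adjusted p = 0.00611). Adamts12 differed by 0.01 ± 0.11 in the wild type (SE by limma, adjusted p = 0.984).

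The other 9 ADAMTS enzymes were not called in the knockout. Of these, Adamts6, an enzyme linked to fibrillin microfibrils, came closest with a difference of 0.51 ± 0.16 (adjusted p = 0.0617) and no overlap between the surgeries. Adamts3, a procollagen N-propeptidase, differed by -0.19 ± 0.12 (adjusted p = 0.374). Adamts13, the von Willebrand factor protease, was dim, as were Adamts14, Adamts16, Adamts17, Adamts18 and Adamts20, and these 6 read 3.96 to 5.02 on the arrays and differed by -0.08 to 0.14.

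**Figure D3:**
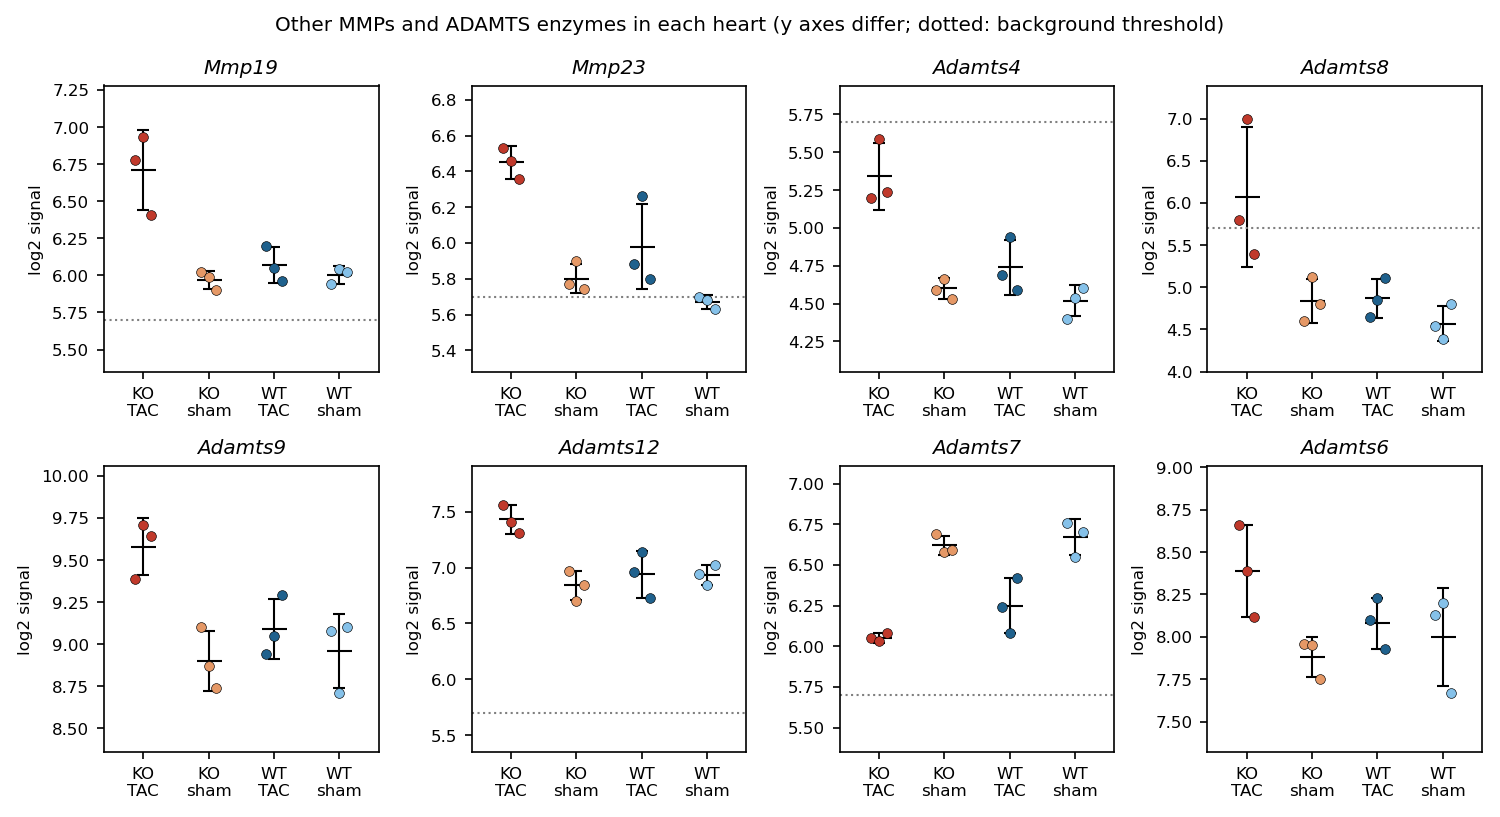
Log2 signal of Mmp19, Mmp23 and 6 ADAMTS enzymes in each heart, by group, with y axes that differ between genes; points are single arrays, bars the mean and SD of 3 arrays, and the dotted line the background threshold of 5.70. Adamts7 is lower in TAC hearts than in sham hearts of both genotypes, and for Mmp19, Mmp23, Adamts4, Adamts8, Adamts9 and Adamts12 the knockout TAC hearts are the 3 highest.

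In wild-type hearts none of these genes was called, although every wild-type TAC heart read higher for Mmp2 and lower for Timp4 than every wild-type sham heart. For wild-type TAC replicate 3 the gap was narrow. It read 11.40 for Mmp2, where the highest wild-type sham heart read 11.24, and 9.56 for Timp4, where the lowest read 9.59. Of the 39 genes 0 passed in wild-type TAC against wild-type sham hearts by limma, where 0.178% of all genes were called. At an unadjusted p under 0.05 there were 5, where 12.3% of all genes stood. The median difference was 0.05, with 29 of 39 positive, against 0.02 over all genes. The groups did not overlap for 6 members (Adamts7, Mmp2, Timp4, Mmp23, Timp1 and Adamts15), against 16.1% of all genes.

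The 5 smallest p-values in the wild type belonged to Adamts7, Mmp2, Timp4, Mmp23 and Timp1. Adamts7 differed by -0.42 ± 0.09 (adjusted p = 0.0927) and Mmp2 by 1.62 ± 0.44 (adjusted p = 0.162). Timp4 differed by -1.48 ± 0.44 (adjusted p = 0.194), Mmp23 by 0.31 ± 0.11 (adjusted p = 0.276) and Timp1 by 0.82 ± 0.35 (adjusted p = 0.368), its sham hearts being below the background threshold. Mmp14 differed by 0.71 ± 0.35 with overlapping groups (adjusted p = 0.437), and Mmp3 by 0.10 ± 0.20 (adjusted p = 0.895).

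The wild-type TAC hearts varied more among themselves than the other groups for some members, with an SD of 1.22 for Mmp2 and 1.03 for Timp4. For others the knockout TAC hearts varied most, with an SD of 0.78 for Timp1 and 0.83 for Adamts8. Over the 13 members called in the knockout the median SD was 0.24 in wild-type TAC and 0.27 in knockout TAC hearts. Of the 11 members called higher in the knockout, wild-type TAC replicate 2 was the highest of its group for 7 and replicate 3 the lowest for 8, and replicate 3 was the highest for both that fell. For these 11 replicate 3 was also the lowest for 9 in knockout sham, 7 in knockout TAC and 6 in wild-type sham hearts. Replicate 2 was the highest for 7, 6 and 2 in those groups. The order by replicate number was thus not particular to wild-type TAC hearts, and its source was not tested. Postn, a matrix protein of activated fibroblasts, read 14.09, 15.74 and 13.29 in wild-type TAC replicates 1 to 3, so that replicate 2 was highest and replicate 3 lowest there too. Without wild-type TAC replicate 3 the calls over all genes were 264, or 0.978%, and 3 members were among them: Mmp2 at 2.30 (adjusted p = 0.00427), Timp4 at -2.07 (adjusted p = 0.0226) and Adamts7 at -0.51 (adjusted p = 0.0323).

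**Figure D4:**
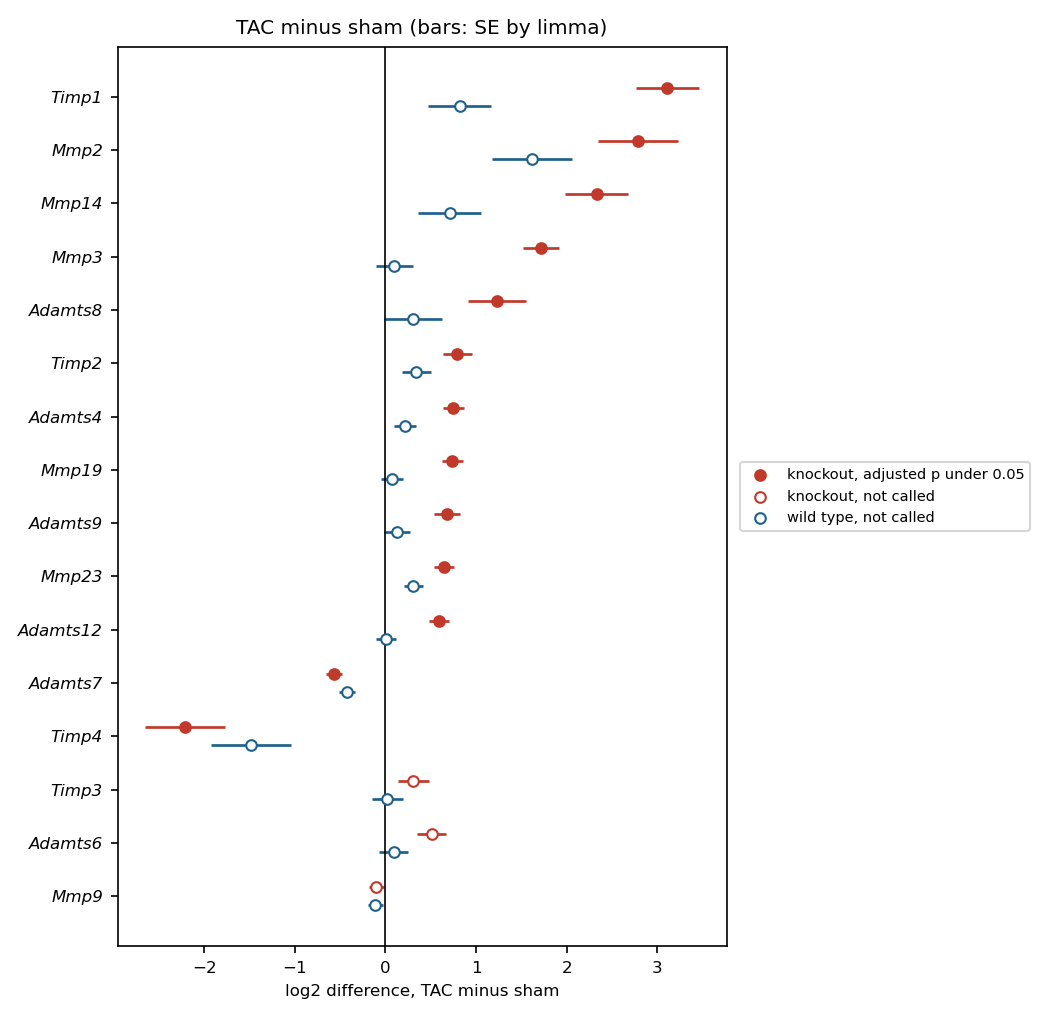
Difference in log2 signal, TAC minus sham, for the 13 called members and for Timp3, Adamts6 and Mmp9, in knockout hearts (red, upper point) and wild-type hearts (blue, lower point), with bars for the SE by limma; filled points have an adjusted p under 0.05. The wild-type points have the sign of the knockout points throughout and none is filled, with Timp1 at 0.82 in the wild type and 3.11 in the knockout, whose difference was not called in the interaction test.

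Averaged over genotypes, 11 members were higher and 2 lower after TAC, where 13.6% of all genes were called, 7.49% higher and 6.12% lower. Timp1 differed by 1.97 ± 0.25 (adjusted p = 0.000486), Mmp2 by 2.20 ± 0.31 (adjusted p = 0.000966) and Timp4 by -1.84 ± 0.31 (adjusted p = 0.00253). This average uses the same arrays as both comparisons above. A call of the average does not show a change in both genotypes. In the wild type Adamts12 differed by 0.01, Mmp19 by 0.07 and Mmp3 by 0.10, while Mmp2 differed by 1.62 and Timp4 by -1.48. The averaged calls of Adamts8 (adjusted p = 0.0483) and Adamts12 (adjusted p = 0.0307) were lost under most omissions of a single array.

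Set directly against each other after TAC, knockout hearts had more Mmp3 than wild-type hearts. Its means were 8.44 ± 0.16 in knockout TAC hearts and 6.77 ± 0.31 in wild-type TAC hearts (SD, n = 3 each), a difference of 1.66 ± 0.20 and a fold of 3.17 (SE, adjusted p = 0.044), and it was the 1 member called, where 0.0111% of all genes (3 genes) were called. The call stood close to the threshold: it was lost when any of 9 of the 12 arrays was left out, with an adjusted p of 0.0642 to 0.18, namely any knockout sham array, knockout TAC replicates 1 and 2, wild-type TAC replicates 1 and 3, and replicates 1 and 2 of the wild-type sham group. Without wild-type TAC replicate 2 the count was 8 members and 774 of all genes (2.87%), and without knockout TAC replicate 3 it was 3 members and 152 of all genes (0.563%). The size of the Mmp3 difference moved little, from 1.49 without wild-type TAC replicate 3 to 1.78 without wild-type TAC replicate 1, among the omissions that ended its call.

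Of the 39 genes 13 had an unadjusted p under 0.05 between the genotypes after TAC, as did 14.6% of all genes. For 13 members the groups did not overlap, where 19.2% of all genes did not. The median difference was 0.04, against -0.04 over all genes. The next smallest p-values after Mmp3 were those of Timp1, Mmp19, Adamts4 and Mmp14. Timp1 differed by 2.23 ± 0.35 (adjusted p = 0.0592), Mmp19 by 0.64 ± 0.12 (adjusted p = 0.0592), Adamts4 by 0.60 ± 0.12 (adjusted p = 0.0592) and Mmp14 by 1.69 ± 0.35 (adjusted p = 0.063). When dim genes were left out of the test Timp1 and Mmp19 (adjusted p = 0.0288 each) and Mmp14 (adjusted p = 0.0313) passed, as did 5.23% of the genes then tested. That filter used the mean over all arrays, the knockout TAC hearts among them. Timp1 got through it only by its high level in those hearts, so its pass there is no support of its own. Mmp2 differed by 1.42 ± 0.44 (adjusted p = 0.161), with its lowest knockout TAC heart at 13.89 and its highest wild-type TAC heart at 13.75. The groups thus came close without overlapping. Timp4 differed by -0.88 ± 0.44 (adjusted p = 0.387) with overlapping groups, and Timp2 by 0.50 ± 0.16 (adjusted p = 0.161). Timp3 differed by 0.23 ± 0.17 (adjusted p = 0.578).

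**Figure D5:**
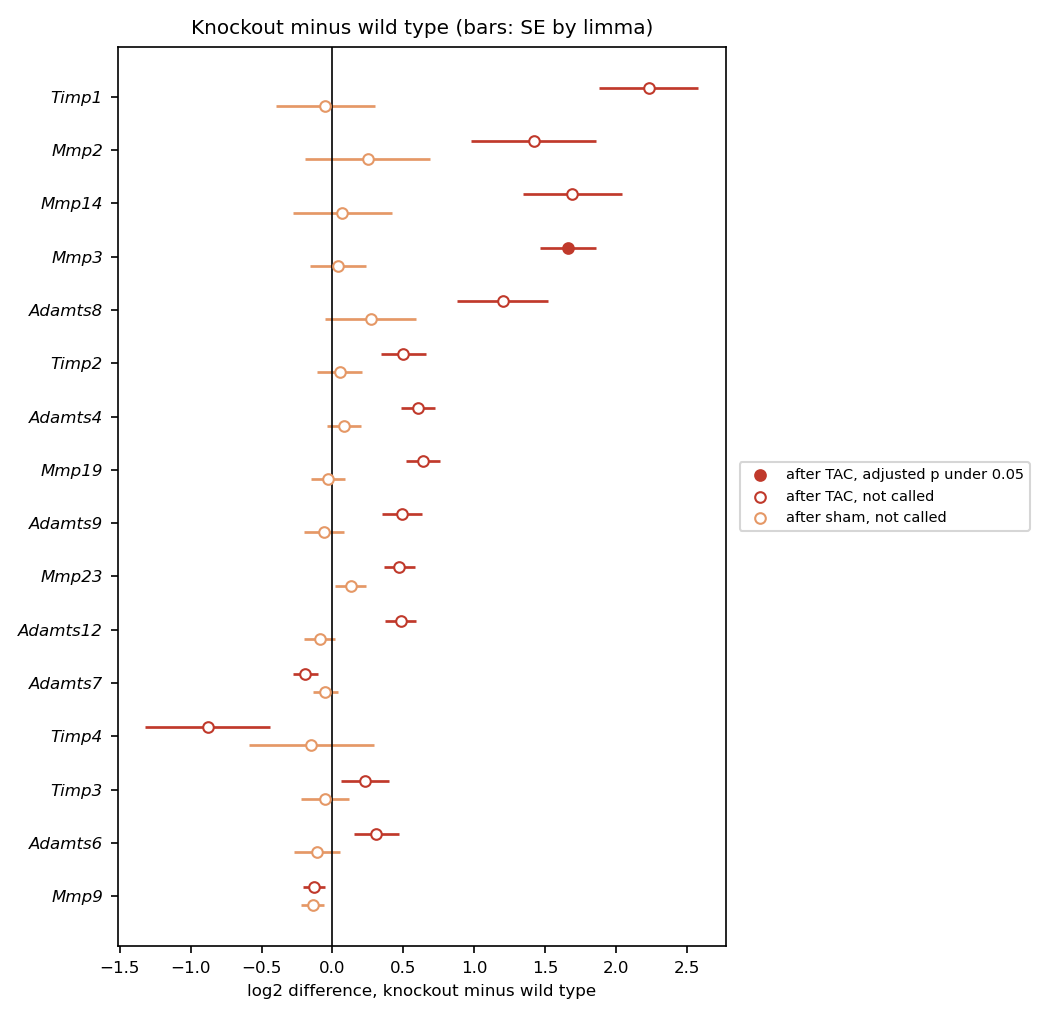
Difference in log2 signal, knockout minus wild type, for the 13 members called for TAC in the knockout and for Timp3, Adamts6 and Mmp9, after TAC (red, upper point) and after sham (orange, lower point), with bars for the SE by limma; the filled point has an adjusted p under 0.05. After TAC Mmp3 alone is filled, at 1.66, and after sham every point lies between -0.15 and 0.27.

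Between knockout sham and wild-type sham hearts 0 of the 39 genes were called by limma, as were 0% of all genes, and 0 had an unadjusted p under 0.05, as did 5.54% of all genes. The differences ran from -0.15 to 0.27. The 5 smallest p-values were those of Mmp9 at -0.14 ± 0.08 (adjusted p = 0.916), Mmp28 at 0.11 ± 0.07 (adjusted p = 0.938), Mmp23 at 0.13 ± 0.11 (adjusted p = 0.948), Mmp21 at 0.09 ± 0.07 (adjusted p = 0.948) and Adamts14 at -0.06 ± 0.07 (adjusted p = 0.975). Mmp21, an MMP of left-right patterning in the embryo, lies on chromosome 7 with 4 coding genes between it and Adam12. It was dim and differed by -0.09 ± 0.07 between the genotypes after TAC (adjusted p = 0.622).

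Whether the TAC difference itself depended on genotype was tested by the interaction, the knockout difference minus the wild-type difference. By limma 0 of the 39 genes passed and 0% of all genes. An unadjusted p under 0.05 was found for 8 of them and for 11% of all genes. The smallest p-values were those of Mmp3 at 1.63 ± 0.29 (adjusted p = 0.259), Timp1 at 2.29 ± 0.49 (adjusted p = 0.259), Mmp19 at 0.67 ± 0.17 (adjusted p = 0.259), Adamts12 at 0.57 ± 0.16 (adjusted p = 0.27) and Mmp14 at 1.62 ± 0.49 (adjusted p = 0.278). When wild-type TAC replicate 2 was left out, Mmp14 at 2.08 (adjusted p = 0.0317) and Timp1 at 2.64 (adjusted p = 0.0318) passed, as did 0.559% of all genes. A larger TAC difference in the knockout than in the wild type was therefore not called for any member with all arrays.

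The substrates of these enzymes were read beside them. In knockout TAC against knockout sham hearts 7.08% of all genes were called higher and 5.68% lower. All 16 matrix substrates listed, collagens, fibronectin, laminins, elastin and nidogen, rose in knockout TAC against knockout sham hearts, with a median difference of 1.96, against -0.03 over all genes. Those with the smallest p were Lama4, a laminin chain, at 0.84 ± 0.08, Col4a2 and Col4a1, chains of basement membrane collagen, at 2.04 ± 0.19 and 2.01 ± 0.20, and Col3a1, a fibrillar collagen, at 3.81 ± 0.38 (SE, adjusted p = 0.000389 each). In wild-type TAC hearts 0 of the 16 were called by limma, against 0.178% of all genes. At an unadjusted p under 0.05 there were 14, against 12.3% of all genes, with a median of 0.75. Between the genotypes after TAC 0 of 16 were called, against 0.0111% of all genes. There 16 had an unadjusted p under 0.05, against 14.6% of all genes, with a median of 1.14.

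Of 12 proteoglycan and matricellular substrates of ADAMTS enzymes 6 rose in the knockout and none fell, with a median of 1.20. Of all genes 7.08% rose there. Acan, the proteoglycan aggrecan, rose by 1.34 ± 0.16 (adjusted p = 0.00051), and Lum, the small proteoglycan lumican, by 2.12 ± 0.30 (adjusted p = 0.000992). Vcan, the large proteoglycan versican, rose by 1.89 ± 0.27 (adjusted p = 0.00114) and Thbs1, thrombospondin-1, by 3.01 ± 0.49 (adjusted p = 0.00214). In wild-type TAC hearts 0 of the 12 were called by limma, against 0.178% of all genes. Only 1 had an unadjusted p under 0.05, against 12.3% of all genes. Between the genotypes after TAC 0 of the 12 were called, against 0.0111% of all genes. There 7 had an unadjusted p under 0.05, against 14.6% of all genes.

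Among 11 activators and restraints of MMPs at the cell surface 5 rose in the knockout and none fell, with a median of 0.33. Of all genes 7.08% rose there. Cd44, a hyaluronan receptor that also docks MMPs, rose by 1.25 ± 0.12 (adjusted p = 0.000389), and Plat, tissue plasminogen activator, by 1.06 ± 0.15 (adjusted p = 0.00106). Lrp1, a receptor that clears protease complexes, rose by 1.37 ± 0.22 (adjusted p = 0.00186) and Reck, a membrane-anchored inhibitor of MMPs, by 0.45 ± 0.12 (adjusted p = 0.0251). The other 6 genes of the list were not called.

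Papilin and the ADAMTS-like proteins have the matrix-binding part of ADAMTS enzymes without the protease. Of their 6 genes 3 rose in the knockout, with a median of 0.52, where 7.08% of all genes rose. They were Adamtsl2 at 1.46 ± 0.19 (adjusted p = 0.000712), Adamtsl3 at 1.18 ± 0.17 (adjusted p = 0.00114) and Papln at 0.59 ± 0.12 (adjusted p = 0.00728). Of 7 genes for cysteine cathepsins and their inhibitor cystatin C, 4 rose, with a median of 0.62, against the same share of all genes. The lysosomal proteases Ctss, Ctsz and Ctsk rose by 1.98 ± 0.22, 1.59 ± 0.17 and 1.73 ± 0.24 (adjusted p = 0.000446, 0.000446 and 0.000927), and Cst3, cystatin C, by 0.62 ± 0.11 (adjusted p = 0.00349).

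Markers of some other heart cells also differed after TAC in the knockout, and their part in these results was not tested. Of all genes 7.08% were called higher and 5.68% lower in that comparison. All 5 markers of activated fibroblasts (Postn, Meox1, Cilp, Fap and the dim Cthrc1) rose in the knockout, with a summed level, the log2 of their added signals, of 16.41 to 16.93 in knockout TAC hearts, 12.06 to 12.30 in knockout sham hearts, 13.43 to 15.95 in wild-type TAC hearts and 11.92 to 12.24 in wild-type sham hearts. Of 7 fibroblast markers 5 rose. Dcn at 0.47 ± 0.16 (adjusted p = 0.0857) and Gsn at -0.37 ± 0.18 (adjusted p = 0.232) were not called. The summed level of the 7 was 17.37 to 17.70 in knockout TAC hearts and 16.91 to 17.10 in knockout sham hearts. It was 16.79 to 17.45 in wild-type TAC hearts and 17.01 to 17.20 in wild-type sham hearts.

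All 6 macrophage and monocyte markers rose in the knockout, at 14.33 to 15.29 in knockout TAC hearts, 13.38 to 13.75 in knockout sham hearts, 14.05 to 14.26 in wild-type TAC hearts and 13.36 to 13.75 in wild-type sham hearts. Of 7 cardiomyocyte markers 3 fell, at 20.92 to 21.01 in knockout TAC hearts, 21.12 to 21.13 in knockout sham hearts, 21.02 to 21.07 in wild-type TAC hearts and 21.06 to 21.11 in wild-type sham hearts. The 7 neutrophil markers were all dim, as were Mmp8 and Mmp9, and 1 of them, Csf3r, rose. Of 6 endothelial markers 2 rose and of 5 smooth muscle and pericyte markers none was called in the knockout. In wild-type TAC against wild-type sham hearts and between the genotypes no marker of these 7 lists was called. Of all genes 0.178% were called in the wild type and 0.0111% between the genotypes after TAC. There 5 of 5 activated fibroblast, 6 of 6 macrophage and 4 of 7 fibroblast markers had an unadjusted p under 0.05 by limma. So did 2 of 7 cardiomyocyte, 1 of 6 endothelial, 1 of 5 smooth muscle and 0 of 7 neutrophil markers, and 14.6% of all genes. In the wild type these counts were 4, 4, 4, 1, 3, 0 and 0 in the same order, against 12.3% of all genes.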

How the data were processed

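Total RNA from 12 hearts (250 ng each) was labelled with biotin and hybridized to Clariom D mouse arrays, 1 heart per array. The deposited values are log2 signals of 65527 probe sets, made by the authors with Affymetrix Expression Console per the submitters' processing notes. Its version and the normalization, summarization and genome build are not given in the sources used here. The log2 scale was read from the values themselves.

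The 6732 control probe sets took no part in the tests. Of 58795 others, 27268 carried 1 gene symbol, 1932 several and 29595 none in GEO's platform annotation. A gene was read on its brightest probe set with 1 symbol, which gave 26989 genes. Dim genes stayed in. The background threshold is the 95th percentile of the mean signal of 23 background control probe sets. A bound written as "at least" sets the brighter group's mean against that threshold.

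Groups came from the labels. limma 3.58.1 in R 4.3.3 was fitted with 1 mean per group over all 12 arrays, with default moderation (prior degrees of freedom 3.29, residual 8), 2-sided tests and p-values adjusted over all genes by Benjamini-Hochberg, called at an adjusted p under 0.05. The procedure was tested on simulated data in which a gene had the same spread in every group. Members such as Mmp2, with an SD of 1.22 in wild-type TAC and 0.09 in wild-type sham hearts, are not covered by that setting. Correlations between arrays ran from 0.9886 to 0.9973, and no arrays were identical. The number of arrays limits the precision.

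Per-heart values are given for the TIMPs, Mmp2, Mmp3, Mmp9, Mmp14, members called between genotypes and the largest called differences of the knockout, and other called members by their difference. Where under 3 were called, the 5 smallest p-values are given. From each other gene list up to 4 genes with the smallest p in the knockout are named. The members, the lists and these rules were chosen with earlier results of these data known. Genes named outside the rule (Mmp11, Mmp12, Mmp28, Adamts3, Adamts6, Adamts15, Mmp21, the synapsins, Postn) were chosen after their values were seen or for their position. Protein sequences were not used here. Alternatives tried were quantile normalization, centring of each array on its median, dropping dim genes, testing all probe sets, averaging probe sets, trended robust moderation, array weights, fitting only the groups compared, a replicate block and leaving out each array.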

Additional observations from a re-analysis of the deposited data

How the results depend on the processing

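The counts of members called for TAC in the knockout (13) and averaged over genotypes (13) stayed within 12 to 14 and 10 to 14 under every alternative run, and the count between the genotypes after sham stayed at 0. The count for TAC in the wild type, 0 with all arrays, was 1 without dim genes (1.97% of all genes then tested), 3 with array weights (1.3% of all genes) and 0 to 3 when 1 array was left out (0.978% of all genes at 3), against 0.178% of all genes before. The count between the genotypes after TAC, 1 with all arrays, was 0 after quantile normalization, after centring, with all probe sets tested and in a fit of the TAC arrays alone, 2 with trended robust moderation (0.111% of all genes), 6 without dim genes (5.23%) and 0 to 8 when 1 array was left out (2.87% at 8), against 0.0111% before. The interaction gave 0 to 2 when 1 array was left out. The cause of these shifts was not tested. Same-numbered replicates were not treated as pairs, since the labels give only a number and no pairing. Their deviations from the group means correlated at -0.07 to 0.31 over 18 pairs, with 9 over 0.1. Between differently numbered arrays of different groups the correlations ran from -0.27 to 0.20. An effect shared by arrays of the same number was thus not modelled in the main fit, and its source was not tested. With the replicate number as a block the count was 1 in the wild type and 6 between the genotypes after TAC, among them Timp1 (adjusted p = 0.015), Adamts4 and Mmp14 (adjusted p = 0.0195 each) and Mmp19 (adjusted p = 0.0237), and 5 of the 12 arrays correlated best with their own number in every other group. The same block took the calls over all genes between the genotypes after TAC to 575 (2.13%), against 3 without it, and in the wild type to 266 (0.986%). No called value of a named member changed sign, and no uncalled value changed sign and passed the threshold. Sign changes of small differences that stayed uncalled were not counted. Of the values of single members, 587 kept their side of the threshold, 13 passed it anew and 10 lost it under alternatives other than leaving out an array, and 821, 12 and 31 did so with 1 array left out. With 3 hearts a group and 22 of 39 members dim, small differences of dim members could not be measured well.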
